A study of Homo sapiens with 7 samples.

Results

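The loci of FOXA1, FOXA2 and FOXA3 were examined in chromatin immunoprecipitation and sequencing (ChIP-seq) lists of CyT49, a line of human embryonic stem cells that was differentiated in culture toward pancreas. HNF6 (ONECUT1) had been immunoprecipitated from gut tube endoderm (day 5) and, like GATA6, from pancreatic progenitors (day 10), and NKX6.1 from cells of day 13. All groups share the same line and protocol with no added treatment named, and each consists of 1 library, so replicate error is unknown for every value and nothing was tested. The 3 input libraries of days 5, 10 and 13 were not analysed here. The loci were chosen by gene name with earlier results of these data in view, and a region belonged to a locus when its midpoint lay within 200 kb of the gene span on hg19. FOXA1 spans chr14:38058757-38064325, FOXA2 chr20:22561642-22565101 and FOXA3 chr19:46367518-46377055. In all, 98 of the 86081 listed regions were members, with 30 at FOXA1, 56 at FOXA2 and 12 at FOXA3. For FOXA2 the whole window chr20:22000001-23000000 was also described, which was selected on its high number of GATA6 regions.

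FOXA proteins are forkhead transcription factors that bind their sites on nucleosomes and open chromatin for other factors, for which they are called pioneer factors. FOXA1 and FOXA2 act together in the gut tube and are needed for formation of the pancreas, FOXA2 marks the definitive endoderm from which the gut tube arises, and FOXA3 is best known from liver and gut. HNF6 is a cut homeodomain factor, GATA6 a zinc finger factor and NKX6.1 a homeodomain factor, and all of them act in the early pancreas. Binding near a gene does not show that the gene is regulated from that site, and expression was not measured here.

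The sequences before the starts of FOXA1 and FOXA3 and of LINC00261 are shown because no listed region lay within 1 kb of the starts of the former, whereas LINC00261 is the neighbour of FOXA2 on the side that carried most regions. LINC00261 is a long noncoding RNA, and any effect of it on FOXA2 expression was not examined here. RefSeq windows of GRCh38.p14 were used, FOXA1 and FOXA3 matched and FOXA2 did not. Each sequence gives the 250 bases before the start, 5′ to 3′ on the strand of the gene, with motif matches in capitals. The windows are chr14:37595250-37595499 (minus strand), chr19:45864076-45864325 (plus strand) and chr20:22578643-22578892 (minus strand) of that build, whose positions were not converted to hg19.
FOXA1: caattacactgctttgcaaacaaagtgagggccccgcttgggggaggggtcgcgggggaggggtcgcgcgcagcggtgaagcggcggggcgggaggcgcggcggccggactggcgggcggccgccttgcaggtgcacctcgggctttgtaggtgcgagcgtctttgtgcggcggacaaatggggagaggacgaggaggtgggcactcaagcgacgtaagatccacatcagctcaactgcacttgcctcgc
FOXA3: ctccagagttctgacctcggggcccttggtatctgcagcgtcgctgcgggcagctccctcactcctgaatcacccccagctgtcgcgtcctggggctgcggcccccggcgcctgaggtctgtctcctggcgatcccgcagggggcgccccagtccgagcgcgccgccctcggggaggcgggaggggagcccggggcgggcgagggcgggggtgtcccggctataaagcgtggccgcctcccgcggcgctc
LINC00261: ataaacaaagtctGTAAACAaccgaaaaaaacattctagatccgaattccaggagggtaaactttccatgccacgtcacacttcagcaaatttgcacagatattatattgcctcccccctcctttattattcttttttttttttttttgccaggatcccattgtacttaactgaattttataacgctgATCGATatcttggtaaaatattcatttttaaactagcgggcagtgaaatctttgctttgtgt

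Both strands were searched for GATAA (the core bound by GATA factors), ATCGAT and ATCAAT (HNF6), TAATTA (homeodomain factors such as NKX6.1) and TGTTTAC (forkhead factors). These motifs do not contain each other. The windows of FOXA1 and FOXA3 held no match, and their GC content was 67.2% and 75.2%. The LINC00261 window held ATCGAT from base -62 to -57 and TGTTTAC on the opposite strand from base -237 to -231, counted back from the start, and its GC content was 34.8%. Of 34788 distinct RefSeq windows of the same length, 0.653% held ATCGAT, 5.58% ATCAAT, 2.98% TGTTTAC, 4.37% TAATTA and 20.5% GATAA, and their median GC content was 58.0%. A match describes letters and not a bound site.

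No HNF6 region of day 5 lay within 200 kb of any FOXA gene, and the day 10 list held many there. The day 5 list was short, with 250 regions in all. Its median count was 0 in windows of the genome as wide as each locus. Of the 2863 wider windows described below for FOXA2, 2639 held no day 5 region. The lack of day 5 regions at these genes was thus the usual value for this list. Its region nearest to FOXA3 lay 458 kb away at chr19:45909644-45909854, that nearest to FOXA1 1840 kb away and that nearest to FOXA2 7890 kb away. On day 10, HNF6 had 24 regions at FOXA1, 37 at FOXA2 and 8 at FOXA3. Day, library and list length changed together, so a gain of HNF6 at these genes and a difference in detection cannot be told apart.

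FOXA2 was the most densely occupied of the 3 genes on day 10. Its 37 HNF6 regions compared with a median of 8 in all 6944 adjoining windows of the same width (403.46 kb) that held any listed region, and 4 of these windows held 37 or more. Its 14 GATA6 regions compared with a median of 1, and the fullest of these windows held 13. FOXA1, with 24 HNF6 regions, was matched or exceeded by 2.07% of 6908 windows of its width, and FOXA3, with 8, by 58.0% of 6866 windows. The 3 GATA6 regions at FOXA1 and the 3 at FOXA3 were matched by 9.48% and 9.64% of windows. NKX6.1 of day 13 had 3 regions at FOXA1, 5 at FOXA2 and 1 at FOXA3, numbers that 35.0%, 9.86% and 80.7% of windows reached. The loci are centred on genes and the windows are not, so these shares describe the loci and test nothing. The window of FOXA2 was also selected on its GATA6 count, so its high GATA6 number follows from that selection. Each listed GATA6 region overlaps HNF6 of day 10, so the GATA6 counts are not separate from the HNF6 counts.

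**Figure D1:**
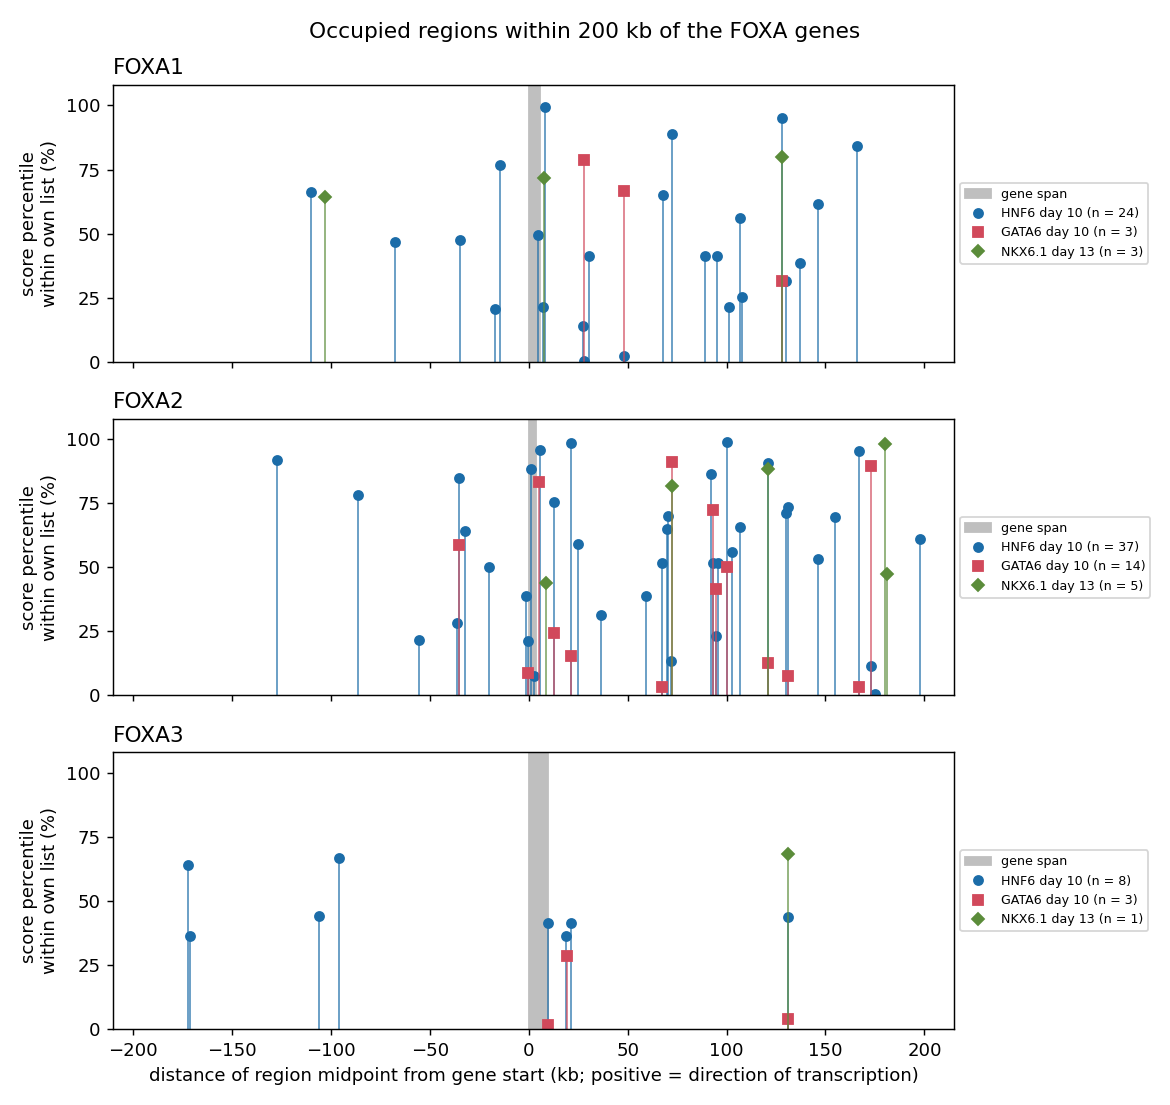
Regions within 200 kb of FOXA1, FOXA2 and FOXA3, with distance of the midpoint from the gene start in kb on the horizontal axis (positive in the direction of transcription) and the percentile of the authors' score within its own list on the vertical axis. Blue circles stand for HNF6 on day 10, red squares for GATA6 on day 10, green diamonds for NKX6.1 on day 13 and the grey band for the gene; most regions of FOXA1 and FOXA2 lie past the gene, and the 8 HNF6 regions of FOXA3 reach no higher than percentile 66.9.

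Regions were spread unevenly around the genes. At FOXA1, which is transcribed toward lower coordinates, 18 of 24 HNF6 regions lay past the gene end, 1 inside the gene span and 5 before its start. At FOXA2, transcribed in the same direction, 26 lay past the gene end, 2 inside and 9 before the start. All 3 GATA6 regions of FOXA1, 12 of the 14 of FOXA2 and all 3 of FOXA3 lay past the gene end as well. The side of FOXA2 with most regions is the side on which LINC00261 is its neighbour in the GRCh38 gene table. At FOXA3 the HNF6 regions were divided evenly, with 4 on either side. Neighbouring HNF6 regions were a median of 5.04 kb apart at FOXA2, 6.64 kb at FOXA1 and 9.89 kb at FOXA3. The densest 100 kb at FOXA2, chr20:22469288-22566426, held 18 HNF6 regions and reached from past the gene to its start.

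HNF6 and GATA6 had weak regions just before the start of FOXA2, and neither region covered the start base itself. Scores are the authors', in a unit that the labels do not state, and a percentile is the share of regions of the same list with a lower score. The HNF6 region chr20:22565136-22565388 had a score of 43 (percentile 21.1) and a midpoint 0.161 kb before the start. The GATA6 region chr20:22565106-22565547 had a score of 34 (percentile 8.67) and overlapped it by 253 bp. Both thus ranked low in their lists. A stronger HNF6 region lay inside the gene span at chr20:22563393-22564206 (score 341, percentile 88.3) and overlapped no region of another list. Its exon or intron was not assigned, since no hg19 annotation was used here.

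The starts of the other genes had no listed region as near. At FOXA1 the HNF6 region nearest to the start had its midpoint 4.62 kb into the gene at chr14:38059553-38059866 (score 79, percentile 49.6). The nearest GATA6 region of FOXA1 was 27.8 kb from the start and the nearest NKX6.1 region 7.98 kb. At FOXA3 the nearest HNF6 region, chr19:46377044-46377300 (score 68, percentile 41.3), overlapped the end of the gene, 9.65 kb from the start. It was overlapped by the GATA6 region chr19:46377258-46377439, whose score of 19 lay at percentile 1.59. On the same side, where IRF2BP1 is the next gene, HNF6 at chr19:46386369-46386638 (score 59, percentile 36.4) overlapped GATA6 at chr19:46386546-46386883 (score 60, percentile 28.4), 9.66 kb past FOXA3. Over all 8 HNF6 regions of FOXA3 the median percentile was 42.6, close to the 44.0 of FOXA1, and the 3 GATA6 regions of FOXA3 lay at percentiles 1.59 to 28.4.

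A strong HNF6 region lay a similar distance past the end of both FOXA1 and FOXA2. At FOXA1 it was chr14:38055718-38056851, 2.47 kb past the gene, with a score of 1845 (percentile 99.4) and a width of 1134 bp. This was the strongest HNF6 region at any FOXA gene, and it held the NKX6.1 region chr14:38056282-38056407 (score 81, percentile 71.7) but no listed GATA6 region. At FOXA2 it was chr20:22558937-22559545, 2.4 kb past the gene, with a score of 721 (percentile 95.6). Here GATA6 was listed at chr20:22559419-22560093 (score 330, percentile 83.3), with 127 bp of overlap and midpoints 515 bp apart, and NKX6.1 was not. LINC00261 is the neighbour on this side of FOXA2 and was not placed on hg19. Whether this region lies at the start of LINC00261 was therefore not examined. The gene span of FOXA3 was followed at 0.117 kb by the HNF6 region of percentile 41.3 named above.

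The other strong HNF6 regions of FOXA2 lay farther from the gene. The strongest was chr20:22464759-22465281, with a score of 1470 (percentile 98.9), 96.6 kb past the gene. The next, chr20:22543555-22544220, had a score of 1263 (percentile 98.4) and lay 17.8 kb past the gene. These were followed by the region of score 721, by chr20:22397670-22398076 (score 685, percentile 95.3) at 164 kb and by chr20:22692157-22692505 (score 461, percentile 91.8), which lay 127 kb before the start. Of these 5, only the last overlapped no GATA6 region. Of the 37 regions, 26 were above the median score of the HNF6 list, and 6 were at or above its percentile 90.

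At FOXA1, apart from the region next to the gene, the strongest HNF6 regions lay past it at chr14:37935566-37936506 (score 683, percentile 95.2), chr14:37991652-37991972 (score 363, percentile 89.0) and chr14:37898178-37898517 (score 267, percentile 84.3). The fifth, chr14:38078491-38078746 (score 183, percentile 76.9), lay 14.3 kb before the start, where TTC6 is the neighbouring gene. Of the 24 regions at FOXA1, 9 were above the median score of the list. FOXA3 had no HNF6 region at or above percentile 75 of the list. Its strongest, chr19:46271390-46271655 (score 126, percentile 66.9) and chr19:46195571-46195795 (score 116, percentile 64.2), lay 96.0 and 172 kb before the start, and the next were chr19:46261536-46261735 (score 71) and chr19:46498009-46498239 (score 70), followed by a pair of score 68.

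HNF6 regions with several rows in the deposited list, which share coordinates and carry a letter, were 3 of 24 at FOXA1, 3 of 37 at FOXA2 and 0 of 8 at FOXA3, against 2.11% of the whole list. Those of FOXA1 were the region next to the gene, the region of score 683, with 3 rows, and chr14:37917664-37918210 (score 109). Those of FOXA2 were the region inside the gene, chr20:22434040-22434659 (score 158) and chr20:22469288-22469998 (score 84).

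The share of HNF6 regions with GATA6 at FOXA2 is a description, because the window around the gene was selected on its GATA6 count. All GATA6 regions of that window are members of the locus, and each listed GATA6 region overlaps HNF6. At FOXA2, 14 of 37 HNF6 regions overlapped a listed GATA6 region, or 37.8% (Wilson 95% interval 24.1 to 53.9), against 9.66% of all HNF6 regions of day 10. The intervals cover counting error only, and neighbouring regions are not independent. At FOXA1 the share was 12.5% (3 of 24, 4.34 to 31.0), whose interval includes that of the list, and at FOXA3 it was 37.5% (3 of 8, 13.7 to 69.4). The share at FOXA3 rests on overlaps of 43 to 93 bp, and none covered 50% of the shorter region. All listed GATA6 regions of the series overlap an HNF6 region, so the reverse share was 100% by the make-up of the list and is no result.

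The same 14 overlaps at FOXA2 were divided by HNF6 score, again as a description of a selected locus. In the whole list, 14.6% of the HNF6 regions above the median score overlapped GATA6 and 4.72% of those at or below it. At FOXA2 it was 10 of 26, or 38.5% (22.4 to 57.5), above the median and 4 of 11, or 36.4% (15.2 to 64.6), at or below it. The overlaps thus lay at weak as well as strong HNF6 regions. At FOXA1 the counts were 1 of 9 and 2 of 15, with intervals of 1.99 to 43.5% and 3.74 to 37.9% that include the shares of the list.

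**Figure D2:**
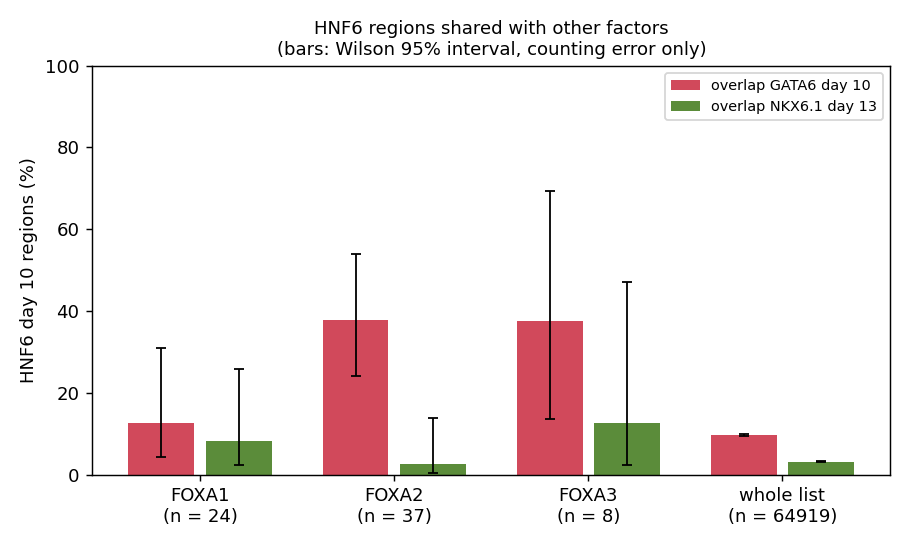
Share of HNF6 day 10 regions, in percent, that overlap a GATA6 day 10 region (red) or an NKX6.1 day 13 region (green), at each FOXA gene and in the whole list. Black bars are Wilson 95% intervals for counting error; the GATA6 share is 37.8% at FOXA2, whose window was selected on its GATA6 count, and 9.66% in the whole list, and the NKX6.1 intervals at the genes include the 3.2% of the list.

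HNF6 and GATA6 were not ranked alike where they overlapped at the FOXA genes, and their ranks were only weakly related over all pairs. Over the 20 overlapping pairs the scores had a Spearman's rho of -0.26, and over the 14 pairs of FOXA2 of -0.21, against 0.18 over all 6339 pairs. These are descriptions over neighbouring regions of the same libraries. The strongest GATA6 region at any FOXA gene, chr20:22492457-22493389 (score 547, percentile 91.0), overlapped an HNF6 region of score 36 (percentile 13.5). The next, chr20:22392080-22392629 (score 489, percentile 89.4), overlapped an HNF6 region of score 33 (percentile 11.5). At these sites 68.7 and 169 kb past FOXA2 a strong GATA6 region thus coincided with a weak HNF6 region.

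The opposite also occurred. The HNF6 regions of scores 1470, 1263 and 685 at FOXA2 overlapped GATA6 regions of scores 104, 45 and 25, at percentiles 50.2, 15.4 and 3.15. Only the pair 2.4 kb past the gene had both factors at or above percentile 75 of their lists. The other GATA6 regions among the 5 strongest of FOXA2 were chr20:22471485-22471873 (score 204, with HNF6 of score 84) and chr20:22600080-22600600 (score 131, with HNF6 of score 270), the latter 35.2 kb before the start. At FOXA1, GATA6 at chr14:38036226-38036778 (score 266, percentile 78.7) and at chr14:38016158-38016470 (score 171, percentile 66.8) met HNF6 regions of scores 16 and 20, at percentiles 0.41 and 2.11. Both factors reached percentile 75 in 1 of the 20 pairs, or 5.0%, against 16.5% of all pairs. GATA6 reached percentile 75 with HNF6 below percentile 25 in 3 of the 20, or 15.0%, against 2.95% of all pairs. Counted singly, HNF6 reached percentile 75 in 8 of the 20 pairs, against 3714 of all 6339. Its median percentile was 51.7 in the 20 pairs and 82.3 over all pairs. GATA6 reached percentile 75 in 4 of the 20, against 1583 of all 6339. HNF6 regions were thus weaker in the 20 pairs, so neither difference from all pairs shows by itself how HNF6 and GATA6 were matched. Of the 20 pairs 14 lie at FOXA2, whose window was selected on its GATA6 count, so these shares are descriptions of few regions. The median distance between midpoints was 89.75 bp in the 20 pairs and 63.0 bp over all pairs.

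**Figure D3:**
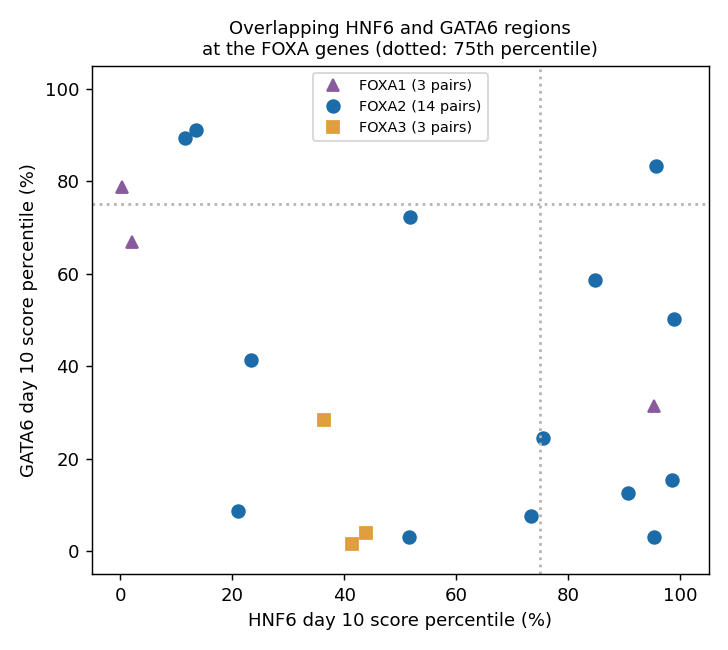
Score percentiles of the 20 overlapping pairs of HNF6 (horizontal axis) and GATA6 (vertical axis) regions at FOXA1 (triangles), FOXA2 (circles) and FOXA3 (squares), each within its own list, in percent. Dotted lines mark percentile 75; 1 pair lies above both, and 3 pairs have GATA6 above the line with HNF6 below percentile 25.

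NKX6.1 of day 13 met HNF6 at each FOXA gene, in few regions. HNF6 regions that overlapped NKX6.1 were 2 of 24 at FOXA1 (8.33%, 2.32 to 25.8), 1 of 37 at FOXA2 (2.7%, 0.479 to 13.8) and 1 of 8 at FOXA3 (12.5%, 2.24 to 47.1), against 3.2% of the list. All these intervals include the share of the list. Counted from NKX6.1, 4 of 9 regions overlapped HNF6 (44.4%, 18.9 to 73.3), against 14.3% of the NKX6.1 list, and 3 of 9 overlapped GATA6 (33.3%, 12.1 to 64.6), against 5.18%. Of the 3 with GATA6, 2 lay at FOXA2, whose window was selected on its GATA6 count. These shares of few regions are descriptions and were not tested. Of the 20 GATA6 regions 3 overlapped NKX6.1 (15.0%, 5.24 to 36.0), near the 11.8% of the list.

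The strongest NKX6.1 region near a FOXA gene overlapped neither HNF6 nor GATA6, as was true of most NKX6.1 regions of the list. It was chr20:22384768-22384896, 177 kb past FOXA2, with a score of 390 (percentile 98.2), and it lay beside another NKX6.1 region, chr20:22384559-22384640 (score 52, percentile 47.4). The nearest HNF6 midpoint was 5.47 kb away and belonged to a region of score 16, and the nearest GATA6 midpoint was 7.52 kb away. The NKX6.1 region nearest to FOXA2, chr20:22556259-22556375 (score 49, percentile 43.8), also overlapped neither, as did chr14:38166863-38166963 (score 72) 103 kb before the start of FOXA1. In the whole NKX6.1 list 14.3% of regions overlapped HNF6 and 5.18% GATA6, so the lack of a partner is not particular to these regions.

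Each FOXA gene had at least 1 HNF6 region that overlapped both GATA6 and NKX6.1. There were 3 such HNF6 regions among 69, or 4.35% (1.49 to 12.0), against 1.15% of the list. At FOXA1 this was chr14:37935566-37936506, 123 kb past the gene, where HNF6 had a score of 683, GATA6 of 65 and NKX6.1 of 104. At FOXA2 it was the site chr20:22444065-22444564, 117 kb past the gene, where these scores were 421, 41 and 150. At FOXA3 it was the site chr19:46498009-46498410, 121 kb past the gene, where they were 70, 26 and 77 and the NKX6.1 region lay inside the HNF6 region but did not touch the GATA6 region. In all of these GATA6 ranked lowest, at percentiles 31.3, 12.6 and 3.91. At a further site of FOXA2, chr20:22492457-22493389, the GATA6 region of score 547 held an HNF6 region (score 36) and an NKX6.1 region (score 109, percentile 81.6) that did not touch each other. With this site, 4 of the 73 merged regions at the FOXA genes held all 3 factors, or 5.48%, against 1.01% of 77373 merged regions of the series. FOXA2 held 2 of these 4 sites, and its window was selected on its GATA6 count. Each listed GATA6 region overlaps HNF6, and NKX6.1 is from another day. This share and that of 4.35% are therefore descriptions, and neither was tested.

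The window of 1 Mb around FOXA2 held 47 HNF6, 14 GATA6 and 8 NKX6.1 regions and no HNF6 region of day 5. Among 2863 windows of the genome that held a region of any list, its GATA6 count ranked 2, after 15 in chr12:89000001-90000000. Its HNF6 count ranked 90, with a median of 22 over all windows, and its NKX6.1 count ranked 418, with a median of 5. The window was selected on its GATA6 count, so that rank is a description. It was 8 with only GATA6 regions above the median score, and 86 with windows offset by 500 kb, where a boundary falls inside the locus and leaves 6 GATA6 regions. All 14 GATA6 regions lay within 200 kb of FOXA2. The rest of the window held 10 HNF6 and 3 NKX6.1 regions, of which none overlapped a region of another factor. In the whole lists 88.3% of HNF6 regions overlapped neither GATA6 nor NKX6.1 and 14.3% of NKX6.1 regions overlapped HNF6, so that these few regions were near the background. The median HNF6 percentile was 48.9 there and 61.2 within 200 kb.

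**Figure D4:**
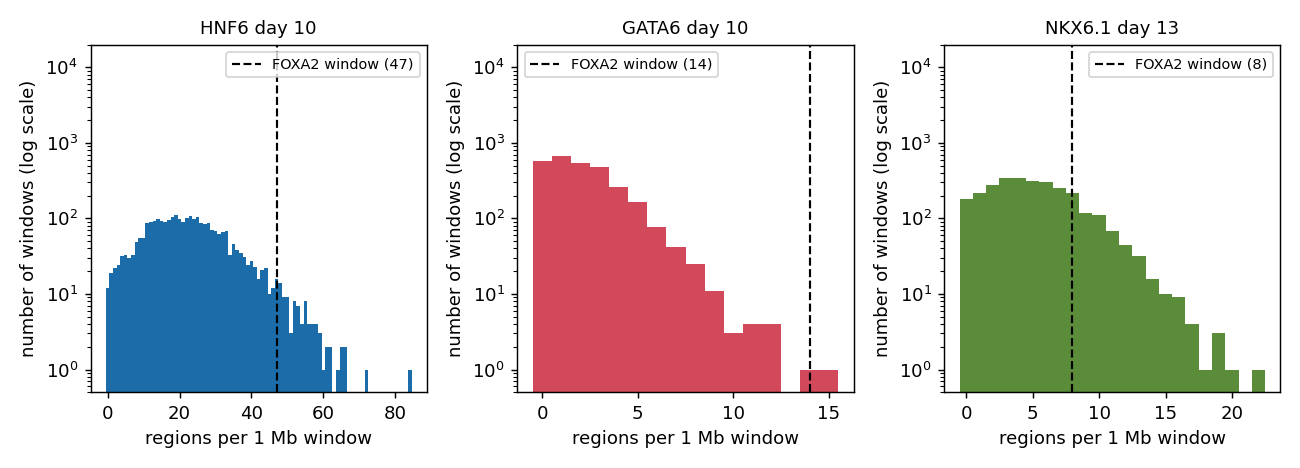
Number of 1 Mb windows (vertical axis, log scale) by the number of regions they hold (horizontal axis), for HNF6 on day 10, GATA6 on day 10 and NKX6.1 on day 13. The dashed line marks the window of FOXA2, with 47, 14 and 8 regions; 1 window holds more GATA6 regions, and with windows offset by 500 kb the rank by GATA6 is 86.

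Regions on either side of the 200 kb limit were as follows. At FOXA2 the outermost HNF6 region inside it lay at 195 kb (score 107) and the next outside at 209 kb (score 44), whereas the outermost GATA6 region inside lay at 169 kb (score 489) and the next at 508 kb (score 307). At FOXA1 the corresponding HNF6 regions lay at 160.0 kb (score 267) and 204 kb (score 112), and the GATA6 regions at 122 kb (score 65) and 310.0 kb (score 32). At FOXA3 the HNF6 regions lay at 172 kb (score 116) and 206 kb (score 123), and the GATA6 regions at 121 kb (score 26) and 397 kb (score 691). For NKX6.1 the regions just inside and outside lay at 123 and 271 kb at FOXA1 (scores 104 and 84), at 177 and 285 kb at FOXA2 (scores 52 and 103) and at 121 and 279 kb at FOXA3 (scores 77 and 64).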

How the data were processed

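The members and lists were chosen with earlier results of these data known. The authors deposited 1 peak list per library, which gives each peak's coordinates, name and score; Bowtie2 2.3.4.1, MACS2 2.1.1.20160309 and hg19 are named, without settings, per the submitters' processing notes. The extraction protocol names an NKX6.1 antibody for every sample, whereas the antibody given as a sample characteristic matches each title, per the labels. The title of the HNF6 library of day 5 is less exact and reads HNF, not HNF6. Rows that share coordinates were counted as 1 region and given their highest score, and scores were ranked only within a list. This left 64919 HNF6 regions of day 10 and 250 of day 5, 14627 of NKX6.1 and 6285 of GATA6. Read depth is unknown from them. GATA6 peak numbers follow position and run to 19404, of which 32.4% are listed, and each listed region overlaps HNF6 of day 10, so counts of GATA6 are of a partial list.

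Regions overlapped if they shared at least 1 bp (pandas 2.3.3, numpy 2.4.6, Python 3.11.15). Intervals are Wilson 95% (statsmodels 0.14.6) and rho is from scipy 1.17.1. The overlap and window code, tested on simulated data, found 200 of 200 planted overlaps. Alternatives were 100 kb, regions above the median score, midpoints within 200 bp, rows as deposited, 50% of the shorter region covered and windows offset by 500 kb. Named regions are the 5 strongest per gene and list, those nearest to the start, those at the limit and those of 3 factors; the region inside FOXA2, NKX6.1 regions without a partner and those of several rows were named after their values were seen. Counts at other forkhead and foregut genes were planned and not run, because no hg19 gene positions were used here. With 1 library per group, no p-value was computed.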

Additional observations from a re-analysis of the deposited data

How the results depend on the processing

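Of 46 alternatives, 30 left a count within 1.5 times its value. Merging rows changed none beyond that, nor did midpoints within 200 bp. Above the median score, HNF6 regions numbered 9 at FOXA1 and 2 at FOXA3. GATA6 regions then numbered 6 at FOXA2 and 0 at FOXA3, and NKX6.1 regions 3 at FOXA2. With both regions of a pair above the median of their lists, HNF6 regions with GATA6 numbered 0 at FOXA1, 4 at FOXA2 and 0 at FOXA3. Within 100 kb, NKX6.1 regions numbered 1 at FOXA1, 2 at FOXA2 and 0 at FOXA3, and HNF6 regions 4 at FOXA3. With 50% of the shorter region covered, 0 HNF6 regions overlapped GATA6 at FOXA3. These settings keep fewer regions by construction.

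The rank of the FOXA2 window by GATA6 regions was 8 above the median score. It was 86 with windows offset by 500 kb, where a boundary falls inside the locus and 6 GATA6 regions are left. By the share of HNF6 regions with GATA6 (29.8%), it ranked 1 among 1638 windows with at least 20 HNF6 regions, which follows in part from its selection on GATA6 count. No paired analysis was possible because each group has 1 library. Read depth is unknown. Each listed GATA6 region overlaps HNF6 of day 10, so counts of GATA6 are counts of GATA6 with HNF6; why the list is partial is not stated.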

Other observations

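The GATA6 list is partial, and the numbers of its peaks show how many are left out between the first and last listed region of each FOXA gene. The listed GATA6 regions of FOXA2 carry numbers from 10306 to 10325, and 14 of these 20 numbers, or 70.0%, are listed, against 32.4% of all numbers. At FOXA1 3 of 4 numbers from 5440 to 5443 are listed, and at FOXA3 3 of 5 from 8445 to 8449. The window of FOXA2 was selected on its listed GATA6 regions, and ranges that begin and end with a listed number favour a high share, so no excess is read from these values. The 9 numbers between them that are not listed were not analysed here.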
